A study of Mus musculus with 6 samples.

Results

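The genes examined encode histones, the proteins around which DNA is wound, and were measured in stem cells of the hair follicle isolated from mouse skin. They were found by symbol among array features (transcript clusters, each read by a set of probes) that carry exactly 1 gene symbol, with the brightest feature used where a gene had several. The symbol pattern took 81 symbols. Of these, 34 belong to the major histocompatibility complex, whose mouse names also begin with H2-, and 1 was a pseudogene, and these were set aside. This left 46 histone genes of 22180 genes measured. Of the 46, 28 are called clustered, as their older symbol begins with Hist, and 18 are single replacement genes. The clustered genes comprised 5 of family H1, 7 of H2A, 8 of H2B and 8 of H4. No H3 gene whose symbol fits the pattern has a feature of its own here, so these H3 genes were read only through features that several genes share. Cenpa, the centromeric H3, falls outside the pattern and was read with the histone chaperone and deposition genes.

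RNA was measured on 6 Affymetrix Mouse Gene 2.0 ST arrays, with 3 samples from wild-type mice (WT) and 3 from mice that carry the transgene K14-sPLA2-IIA (TG), all at postnatal day 49. Cells of both genotypes had been sorted for surface CD34 and α6-integrin, which mark stem cells of the follicle bulge. The keratin 14 promoter drives the transgene, which encodes a secreted phospholipase A2, in basal cells of the skin epithelium, so the stem cells and their neighbours can both carry the enzyme. The labels do not say whether mice were pooled, how many founder lines were used or whether replicates are separate mice. The p-values therefore speak only of the spread among these arrays, which may be technical.

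Histones of families H2A, H2B, H3 and H4 form the core of the nucleosome, and H1 binds the DNA where it enters and leaves. Most are encoded by replication-dependent genes that sit in clusters and are transcribed mainly in S phase, when new DNA has to be packed. Their mRNAs end in a stem-loop bound by SLBP in place of a poly(A) tail, and NPAT activates their transcription. Replacement histones such as H2A.Z and H3.3 come from single genes with polyadenylated mRNAs and are made throughout the cell cycle. Hair follicle stem cells are known for dividing rarely outside the growth phase of the hair cycle. The hybridised material came from total RNA, and whether it was primed at poly(A) tails is not given in the sources used here.

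Promoters are shown for the genes on which the results turn: the pair with the smallest unadjusted p among clustered genes (H1f5 and H4c8), clustered genes whose values moved with array number (H1f2, H2ac15), the clustered gene with the largest difference below 0 (H2aw), and the H2A.Z gene H2az1. Each run is the 120 bases before the annotated start, 5′ to 3′ on the gene's strand, from RefSeq in build GRCm38.p6. Capitals mark the motifs searched, on either strand.
H1f5, chr13:21780626-21780745, minus strand: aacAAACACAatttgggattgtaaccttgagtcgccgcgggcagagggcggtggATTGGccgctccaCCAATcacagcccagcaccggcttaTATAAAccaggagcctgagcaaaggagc
H4c8, chr13:23530924-23531043, plus strand: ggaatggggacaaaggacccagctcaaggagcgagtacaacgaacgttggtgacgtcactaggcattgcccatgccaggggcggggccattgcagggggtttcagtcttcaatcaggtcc
H1f2, chr13:23738687-23738806, plus strand: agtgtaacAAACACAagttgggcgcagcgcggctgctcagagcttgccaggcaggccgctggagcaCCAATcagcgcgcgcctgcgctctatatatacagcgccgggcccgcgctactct
H2ac15, chr13:21753913-21754032, minus strand: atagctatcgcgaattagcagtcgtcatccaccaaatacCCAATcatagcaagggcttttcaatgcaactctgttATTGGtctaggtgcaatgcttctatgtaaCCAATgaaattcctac
H2aw, chr11:58954565-58954684, plus strand: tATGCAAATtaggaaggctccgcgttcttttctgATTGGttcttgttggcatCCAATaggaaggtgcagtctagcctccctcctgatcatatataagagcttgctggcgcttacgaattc
H2az1, chr3:137864367-137864486, plus strand: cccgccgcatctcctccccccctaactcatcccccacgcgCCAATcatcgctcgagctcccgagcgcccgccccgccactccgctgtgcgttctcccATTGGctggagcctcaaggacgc
The H1f5 run holds an H1 box, CCAAT in both orientations and a TATA box, whereas the H4c8 run holds none of the motifs searched. The runs of H2ac15, H2aw and H2az1 each hold CCAAT in both orientations.

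A promoter entry was found for 43 of the 46 genes, and the motifs were searched in the 250 bases before the start on both strands. CCAAT stood in 20 of 26 clustered promoters (76.9%), against 34.2% of all 27025 promoters. TATAAA, the only form of the TATA box searched, stood in 13 (50.0%, against 12.9%). The octamer ATTTGCAT, known from H2B promoters, stood in 9 (34.6%, against 1.59%). AAACACA, the H1 box, was found in 7 (26.9%, against 6.34%), 4 of them H1 genes. The E2F-type motif TTTCGCGC was found in 3 (11.5%, against 0.27%) and TTTGGCGC in 0 (against 0.44%). No motif searched contains another. Neighbours on opposite strands, such as H2ac1 and H2bc1, were counted separately, though their searched stretches may overlap. Of the 4 somatic replacement promoters, 3 held CCAAT and 0 held TATAAA. Clustered genes with the octamer had a median TG minus WT difference of -0.04 on the log2 scale (9 genes), and those without it 0.17 (17 genes), while those with and without CCAAT had medians of 0.09 (20 genes) and 0.10 (6 genes). These medians are descriptions with no test.

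Pla2g2a, the gene named by the transgene, differed by 6.38 ± 0.27 (SE) with a limma adjusted p of 0.00255. Over all genes the median value lay between 6.52 and 6.58 on each array, and TG and WT differed by a median of -0.0075 (TG minus WT). The sort markers were present, with log2 values of 10.34 ± 0.18 in WT and 10.27 ± 0.25 in TG for Itga6 (SD, n = 3 each) and 13.21 to 13.50 over all arrays for the bulge keratin Krt15, while Cd34 ran from 9.65 to 13.07. In bulk RNA of sorted cells, fewer cells of a type and less RNA per cell cannot be told apart.

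No histone gene passed the test between TG and WT cells. The limma adjusted p was 0.99996 for the lowest of the 46 genes, where 1 of 22180 genes (0.00451%) passed the threshold of 0.05. At an unadjusted p under 0.05, 2 of 28 clustered genes, H1f5 and H4c8, were higher in TG, against 1.93% of all genes. At that level 0 of 18 replacement genes were higher, and 1, H1f7, was lower, against 0.843% of all genes. Without WT array 1, WT array 3 or TG array 1 the clustered count was 0. The median difference was 0.07 over the clustered genes, of which 19 of 28 lay above 0 (67.9%), against 47.9% of all genes. With the 3 testis-expressed members left out the median was 0.11. It was 0.14 when WT array 1 was dropped and 0.02 when WT array 3 was. Leaving out both arrays numbered 3 gave -0.0052.

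**Figure D1:**
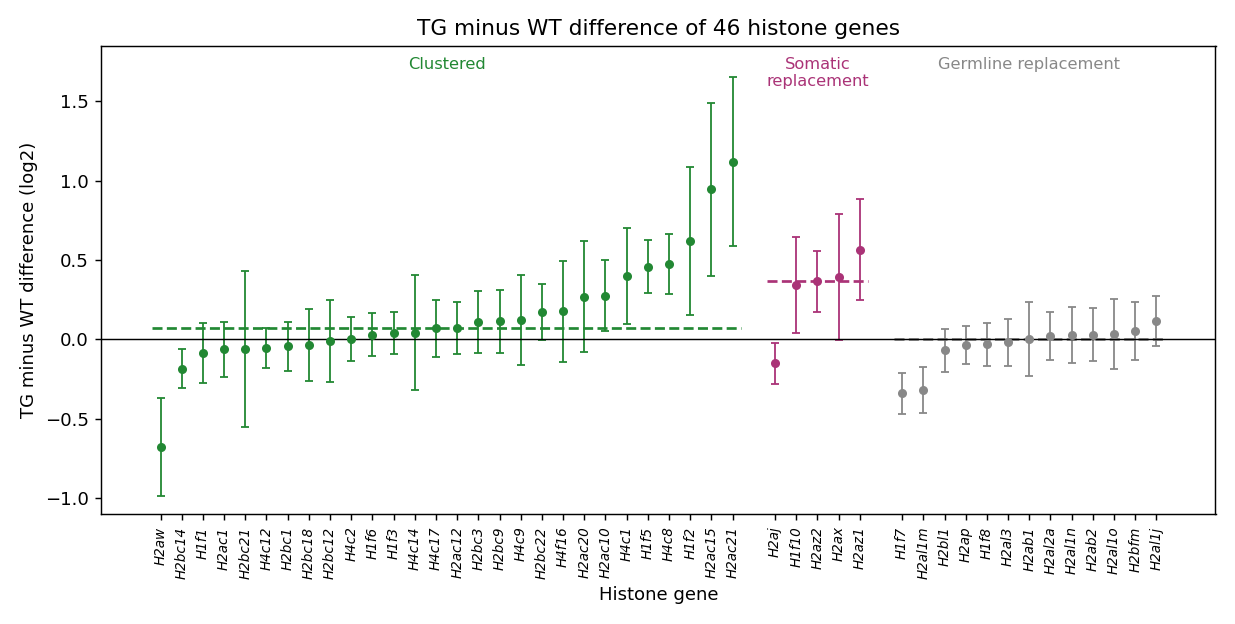
TG minus WT difference on the log2 scale (vertical axis) for the 46 histone genes, ordered within clustered, somatic replacement and germline replacement genes. Points are limma differences, bars are 1 standard error, and dashed lines are group medians (0.07, 0.37 and 0.0019). H2ac21 lies highest at 1.12 and H2aw lowest at -0.68.

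With arrays of the same number treated as pairs (the replicate block), the lowest limma adjusted p among the histone genes was 0.531. At an unadjusted p under 0.05 in that fit, 4 clustered genes were higher in TG (H1f2, H1f5, H2ac15 and H4c8) and 1 somatic replacement gene (H2az1), against 4.59% of all genes. H2aw and H1f7 were lower, against 3.86%. TG exceeded WT in all 3 pairs for 7 histone genes (against 14.6% of all genes), the 5 of these that are clustered being H1f2, H1f5, H2ac10, H2ac15 and H4c8. TG was below WT in all 3 pairs for 7 histone genes as well, against 16.5% of all genes. A share of 7 in 46 in either direction is near that of all genes.

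Of the linker histone genes of the clusters, H1f5, which encodes H1.5, was the one whose genotypes did not overlap. In order of array number, WT read 6.15, 6.32 and 5.90 and TG read 6.75, 6.61 and 6.39; values below follow the same order. Every TG array was above every WT array. The difference was 0.46 ± 0.17 (SE), a 1.37-fold difference, with a limma adjusted p of 0.99996. The mean level of H1f5 lay below the median gene (6.55). The exact permutation test gave p = 0.1, the smallest it can give with 3 against 3. Any gene without overlap gets that value, so it adds nothing to the non-overlap.

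H1f2, which encodes H1.2, read 7.0, 7.65 and 6.24 in WT and 7.75, 8.22 and 6.79 in TG. The genotypes overlapped, but each TG array was above the WT array of its number, and the array numbered 2 was highest and that numbered 3 lowest in both genotypes. The difference was 0.62 ± 0.47 (SE), and the standard error fell to 0.11 with the replicate block. H1f1 was lower by 0.09 and H1f3 higher by 0.04, both within 1 standard error (0.19 and 0.13). H1f6, the testis H1 of the cluster, differed by 0.03 ± 0.14. The median over the 5 H1 genes was 0.04.

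The H2A genes of the clusters held the largest differences in both directions. H2ac21 read 7.02, 8.30 and 7.37 in WT and 8.60, 7.77 and 9.68 in TG. TG array 3 stood highest and the genotypes overlapped. Its difference was 1.12 ± 0.53 (SE), while a second, dimmer feature of H2ac21 differed by 0.01 ± 0.19. H2ac15 read 8.95, 8.76 and 6.86 in WT and 9.48, 9.08 and 8.84 in TG. WT array 3 stood far below the other arrays. The difference was 0.95 ± 0.55 (SE).

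H2aw, the sole member from the small cluster once named Hist3, ran the other way. It read 7.53, 7.28 and 6.73 in WT and 6.73, 6.83 and 5.93 in TG. Each TG array was below the WT array of its number, and arrays numbered 3 were lowest in both genotypes. The difference was -0.68 ± 0.31 (SE), or -0.68 ± 0.12 with the replicate block. In size, 3 clustered genes were at least 1.5-fold higher in TG (H1f2, H2ac15, H2ac21; 1.51% of all genes) and 1 was at least 1.5-fold lower (H2aw; 1.22%). The median over the 7 H2A genes was 0.27, with 5 above 0.

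**Figure D2:**
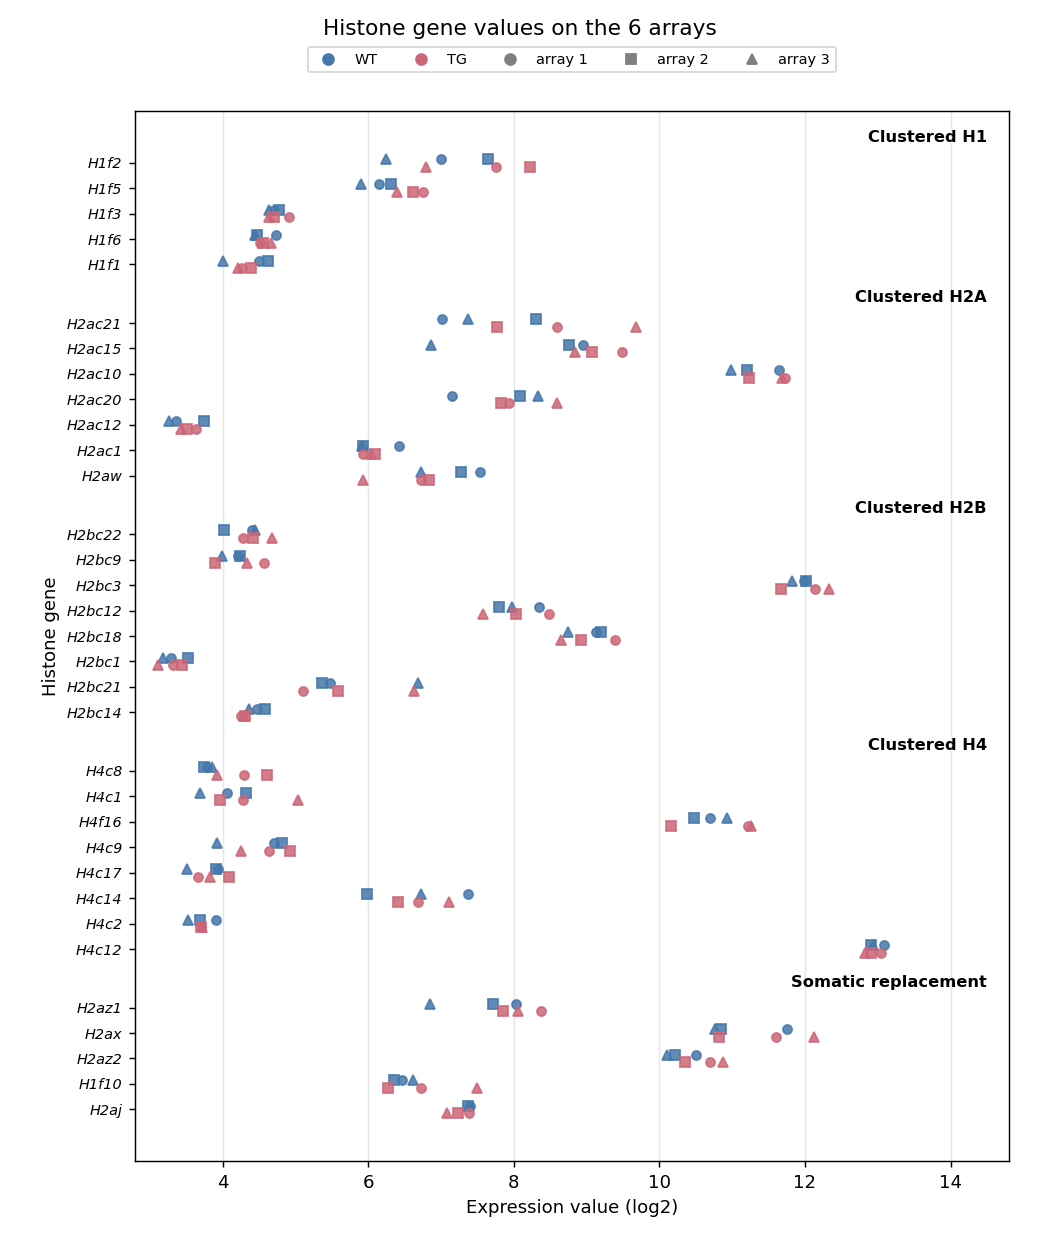
Log2 expression value (horizontal axis) of each clustered and somatic replacement histone gene (vertical axis) on the 6 arrays, blue for WT and red for TG, with a symbol for each array number. H2ac15 on WT array 3 lies at 6.86, far left of its other values. Levels of different genes come from different probes and are not compared.

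The H2B genes of the clusters differed by -0.18 to 0.17, with a median of -0.02 and 3 of 8 above 0. H2bc14 was the one gene with no overlap, at 4.47, 4.58 and 4.36 in WT and 4.26, 4.31 and 4.29 in TG, a difference of -0.18 ± 0.12 (SE). Among all histone genes H2bc14, H1f7 and H2al1m were lower in TG without overlap, against 3.21% of all genes. H2bc22 and H2bc9 were higher by 0.17 ± 0.18 and 0.11 ± 0.20. The testis genes H2ac1 and H2bc1, which stand on opposite strands, differed by -0.06 ± 0.18 and -0.04 ± 0.15. H2ac12 and H2bc12, neighbours on opposite strands, differed by 0.07 ± 0.17 and -0.01 ± 0.26.

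The H4 genes all encode the same protein sequence or nearly so, and 7 of 8 lay above 0, with a median of 0.10. H4c8 read 3.79, 3.74 and 3.86 in WT and 4.29, 4.61 and 3.93 in TG, so that TG array 3 lay just above WT array 3. The difference was 0.48 ± 0.19 (SE), at a level below the median gene (6.55). With H1f5 it made up the clustered genes higher in TG without overlap, 2 of 28 (7.14%), against 3.99% of all genes. Dropping TG array 2 gave 7 such genes, dropping WT array 1 gave 6, and dropping WT array 2 or TG array 3 gave 4, though fewer arrays make non-overlap easier for every gene. H4c1 differed by 0.40 ± 0.30 (SE), which became -0.07 without both arrays numbered 3. H4f16 differed by 0.18 ± 0.32. H4c12 read between 12.82 and 13.09 on all 6 arrays, near the array maximum of 14.14 to 14.42, with a difference of -0.05 ± 0.13.

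Among the replacement genes, those expressed in somatic cells were higher in TG for 4 of 5, with a median difference of 0.37. H2az1, which encodes H2A.Z, a variant found beside gene starts, read 8.03, 7.72 and 6.85 in WT and 8.38, 7.85 and 8.06 in TG. WT array 3 was lowest, and the genotypes overlapped only through TG array 2 and WT array 1. The difference was 0.57 ± 0.32 (SE), or 0.57 ± 0.22 with the replicate block. H2az2, the second H2A.Z gene, read 10.51, 10.22 and 10.10 in WT and 10.70, 10.35 and 10.88 in TG. TG array 2 lay below WT array 1, and the difference was 0.37 ± 0.19 (SE).

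H2ax encodes H2A.X, which is phosphorylated at DNA breaks, and read 11.75, 10.84 and 10.77 in WT and 11.60, 10.82 and 12.12 in TG. The genotypes overlapped, and the difference of 0.39 ± 0.40 (SE) was within 1 standard error. H1f10, a linker histone outside the clusters, differed by 0.34 ± 0.30. H2aj was the one below 0, at -0.15 ± 0.13, and lower in TG in all 3 pairs. Leaving out TG array 3 gave a median of 0.09 for the 5 genes, leaving out WT array 3 gave 0.22, leaving out TG array 2 gave 0.62, and leaving out both arrays numbered 3 gave 0.08.

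The 13 germline replacement genes, known from testis or oocytes, had a median difference of 0.0019, with 7 above 0. H1f7, a spermatid linker histone, read 5.50, 5.47 and 5.29 in WT and 5.05, 5.20 and 4.98 in TG. Every TG array was below every WT array, and the difference was -0.34 ± 0.13 (SE). H2al1m, a spermatid H2A, read 6.54, 6.88 and 6.89 in WT and 6.49, 6.39 and 6.47 in TG, a difference of -0.32 ± 0.14. H2bl1 and H2al1j differed by -0.07 and 0.11. The others (H1f8, H2ab1, H2ab2, H2al1n, H2al1o, H2al2a, H2al3, H2ap and H2bfm) lay between -0.04 and 0.05. No detection value was used, so these values do not show whether the genes were expressed. Over all 18 replacement genes the median was 0.02.

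Probes that match several histone genes gave further values, which belong to no single gene. There were 59 such features, 54 after identical values were counted once, and they were fitted with all 41345 features. The limma adjusted p was 0.99996 for the lowest of them, where 1 feature (0.00242%) passed. Of the 35 shared by clustered genes, 21 lay above 0 (60.0%, against 46.2% of all features), with a median of 0.08. At an unadjusted p under 0.05, 2 were higher, against 1.80% of all features, and 0 lower, against 1.46%. Without overlap 5 were higher, against 3.72%, and 0 lower, against 3.79%. Of the 5, 4 are H2A features shared by the same 10 genes, so they are not independent. With the replicate block 3 were higher at that p, against 3.53%, and 0 lower, against 3.67%. In all 3 pairs 7 were higher, against 13.4%, and 1 lower, against 16.4%, and 2 were at least 1.5-fold higher, against 2.25%, and 0 lower, against 2.62%.

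Those with the smallest unadjusted p were an H2A feature and an H2B feature. The H2A feature, shared by 10 genes, read 5.51, 5.68 and 4.45 in WT and 7.05, 6.32 and 6.10 in TG. Every TG array was above every WT array, and the difference was 1.27 ± 0.39 (SE). The H2B feature, shared by 3 genes, read 9.25, 9.63 and 9.12 in WT and 10.27, 10.22 and 9.73 in TG. These too did not overlap, and the difference was 0.74 ± 0.21 (SE). Other features of the same genes differed by less. Those of the 10 H2A genes ran from -0.07 ± 0.14 to 0.36 ± 0.16, and the brightest of them differed by 0.02 ± 0.14. Another feature shared by the 3 H2B genes differed by 0.24 ± 0.60, with overlap. The 12 features shared by clustered H3 genes had a median of 0.15, with 8 above 0 and 0 past an unadjusted p of 0.05. The 5 shared by H4 genes had a median of -0.03, with 1 above 0.

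H3.3, the replacement form of H3 deposited outside S phase, was read by 7 shared features. All 7 lay above 0, against 46.2% of all features, with a median of 0.21. TG exceeded WT in all 3 pairs for 6 of the 7, against 13.4% of all features. The H3.3 feature with the smallest unadjusted p read 6.35, 6.43 and 6.80 in WT and 7.11, 6.85 and 7.25 in TG, a difference of 0.54 ± 0.18 (SE). The brightest read 13.10, 13.11 and 12.50 in WT and 13.23, 13.32 and 12.79 in TG, with overlap and a difference of 0.21 ± 0.23. The next brightest differed by 0.21 ± 0.22 and 0.11 ± 0.16, also with overlap. The 7 features match the H3.3 genes and near copies, so they are not separate measurements of separate genes.

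**Figure D3:**
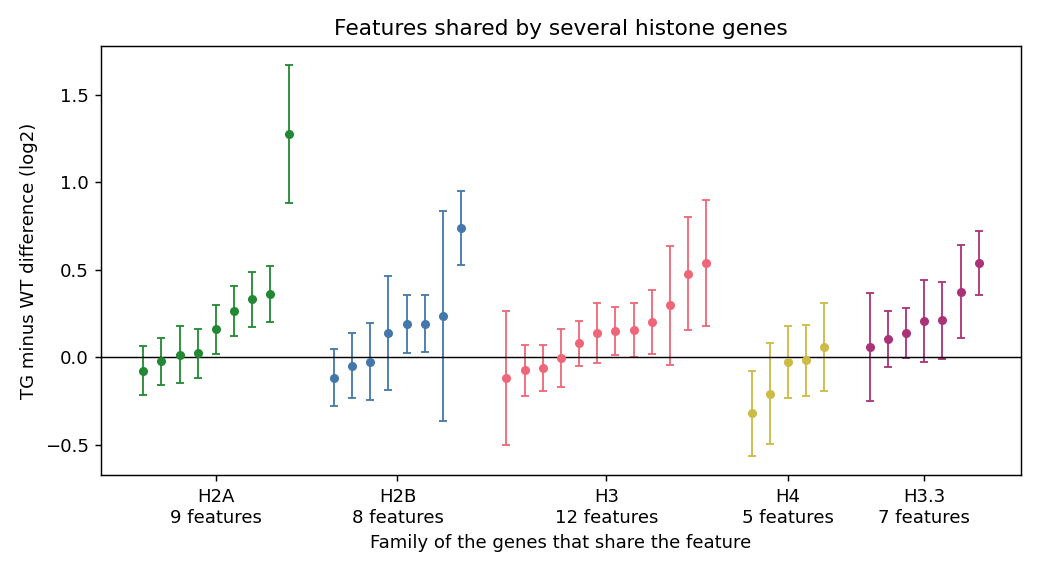
TG minus WT difference on the log2 scale (vertical axis) of features shared by several histone genes, grouped by family, with points for limma differences and bars for 1 standard error. The 7 H3.3 features all lie above 0, while 1 of 5 H4 features does. The highest point is the H2A feature at 1.27.

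The genes that make, process and place histones were read beside the histone genes. Of 19 genes of histone transcription and mRNA processing, 0 passed the limma test, and 0 passed at an unadjusted p under 0.05; 13 lay above 0 (68.4%, against 47.9% of all genes), with a median of 0.05. Npat, the S phase activator of clustered genes, was the 1 of 19 higher without overlap (5.26%, against 3.99% of all genes). It read 9.05, 9.28 and 9.15 in WT and 9.30, 9.47 and 9.36 in TG. The difference was 0.22 ± 0.13 (SE). Slbp, which binds the stem-loop, differed by 0.12 ± 0.15. Ncbp2 and Ncbp1, which bind the mRNA cap, differed by 0.38 ± 0.16 and 0.29 ± 0.17, and Eri1, an exonuclease that trims the stem-loop end, by 0.31 ± 0.17.

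Of 25 histone chaperone and deposition genes, 0 passed the limma test and 3 were higher at an unadjusted p under 0.05 (against 1.93% of all genes). The median was 0.19, with 15 above 0 (60.0%, against 47.9% of all genes) and 10 below. In 2 genes TG was higher without overlap (8.0%, against 3.99%), and in 1 lower (against 3.21%). Supt16, a subunit of FACT, read 8.02, 8.06 and 8.20 in WT and 8.42, 8.45 and 8.68 in TG, with no overlap and a difference of 0.42 ± 0.13 (SE). Nap1l1, which escorts H2A and H2B, also did not overlap, with 9.73 to 9.84 in WT, 9.96 to 10.39 in TG and a difference of 0.47 ± 0.16. Cenpa, the centromeric H3, differed by 0.69 ± 0.27, and Anp32e, which removes H2A.Z, by 0.57 ± 0.26. Srcap, which helps to place H2A.Z, was lower without overlap, at 10.54, 10.61 and 10.51 in WT and 10.32, 10.43 and 10.37 in TG, a difference of -0.18 ± 0.12 (SE).

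Genes of DNA replication and mitosis had larger median differences than the clustered histone genes. Of 41 replication genes, 40 lay above 0 (97.6%, against 47.9% of all genes), with a median of 0.39. At an unadjusted p under 0.05, 7 were higher (17.1%, against 1.93%). Without overlap 12 were higher (29.3%, against 3.99%), and 0 passed the limma test. Prim1, a primase subunit, read 7.86, 8.22 and 8.07 in WT and 8.57, 8.42 and 8.70 in TG, a difference of 0.51 ± 0.15 (SE). Mcm10, Mcm7 and Cdc45, parts of the replication machinery, differed by 0.59 ± 0.18, 0.54 ± 0.18 and 0.69 ± 0.24. Of 21 mitosis genes all lay above 0, against 47.9% of all genes, with a median of 0.71. Of them 12 were higher at an unadjusted p under 0.05 (57.1%, against 1.93%), while 0 passed the limma test. Birc5, Hmmr, Ube2c and Bub1b differed by 1.11 ± 0.35, 0.88 ± 0.26, 0.83 ± 0.27 and 0.80 ± 0.24. The difference between these medians and the histone median was not tested. Of the clustered genes, 16 lay at or below the median gene level (6.55), with a median difference of 0.05. The 12 clustered genes above that level had a median of 0.14, against 0.39 for replication and 0.71 for mitosis genes above it. Without a detection value, the data do not show whether the 16 lower genes were expressed. Without both arrays numbered 3 the medians were 0.13 for replication and 0.40 for mitosis, and without TG array 3 they were 0.25 and 0.43. Of 19 immediate early genes, which respond within minutes to stimuli, 18 lay above 0 (94.7%, against 47.9% of all genes), with a median of 0.81. Of these, 9 were higher at an unadjusted p under 0.05 (47.4%, against 1.93%) and 0 passed the limma test.

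In each of 3 gene groups the largest deviation lay on an array numbered 3. The median deviation from the gene mean of the clustered genes was 0.06, 0.04 and -0.17 in WT and 0.09, -0.01 and 0.01 in TG. WT array 3 stood lowest, and TG arrays 2 and 3 lay below WT arrays 1 and 2. The somatic replacement genes had 0.10, -0.24 and -0.36 in WT and 0.24, -0.11 and 0.42 in TG. Mitosis genes had -0.10, -0.37 and -0.63 in WT and 0.39, -0.13 and 0.88 in TG. In both of these groups TG array 3 was highest and WT array 3 lowest, and TG array 2 was lowest of the TG arrays.

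**Figure D4:**
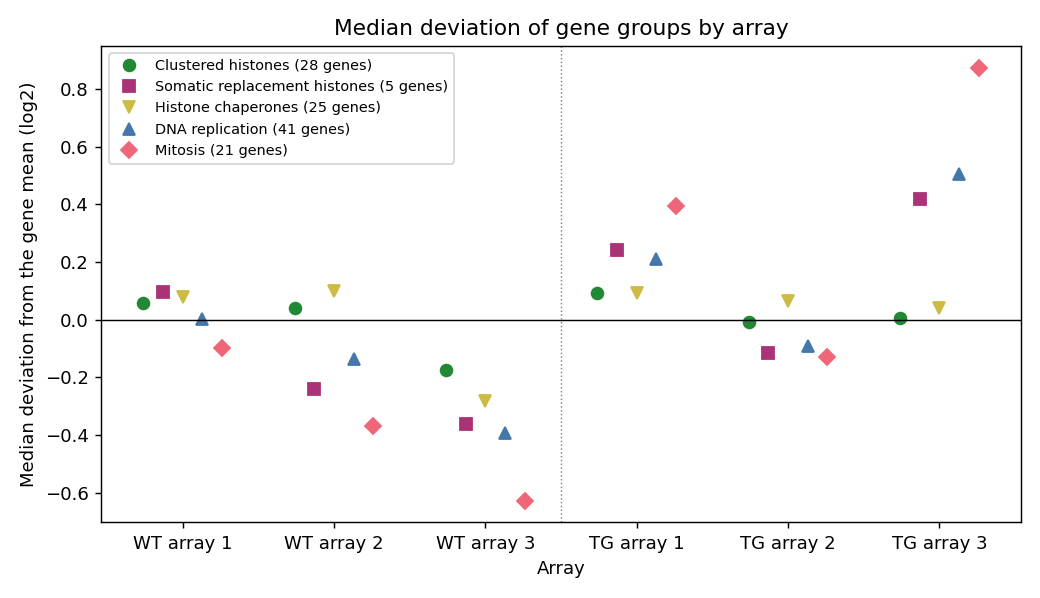
Median deviation from each gene's mean over the 6 arrays, on the log2 scale (vertical axis), for clustered and somatic replacement histones, histone chaperones, DNA replication and mitosis genes on each array (horizontal axis). Mitosis genes run from -0.63 on WT array 3 to 0.88 on TG array 3, and clustered histones from -0.17 to 0.09.

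Some clustered genes followed array number more than genotype. H2bc21, which encodes the variant H2BE, read 5.47, 5.36 and 6.69 in WT and 5.11, 5.59 and 6.63 in TG. The arrays numbered 3 were highest in both genotypes, and the difference was -0.06 ± 0.49 (SE). Arrays numbered 3 were lowest in both genotypes for 10 of 28 clustered genes, against 34.5% of all genes, and highest for 4, against 23.5%. The first share is near that of all genes and the second is below it, and neither was tested. Cd34, a gene of the sort gate, read 9.78, 9.89 and 13.07 in WT and 11.57, 9.65 and 12.42 in TG, and Cd3e, a T cell gene, 10.18, 11.05 and 8.91 in WT and 9.62, 11.37 and 7.87 in TG. The arrays numbered 3 were thus highest for Cd34 and lowest for Cd3e in both genotypes.

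**Figure D5:**
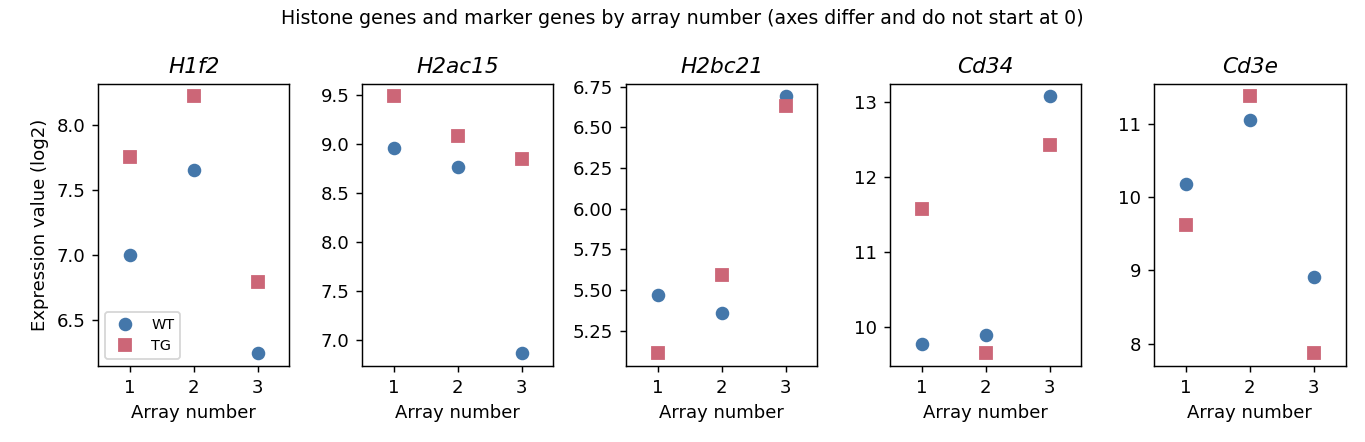
Log2 expression value (vertical axes, which differ and do not start at 0) by array number (horizontal axis) for H1f2, H2ac15, H2bc21, Cd34 and Cd3e, with blue circles for WT and red squares for TG. H2bc21 reads 6.69 and 6.63 on the arrays numbered 3 and at most 5.59 on the others.

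Over the marker lists of other cells, the median level of 8 measured T cell genes ran from 6.73 to 8.30 in WT and 6.33 to 8.50 in TG. In the TG minus WT difference 0 of 8 lay above 0, against 47.9% of all genes. That of 9 suprabasal epidermis genes ran from 10.31 to 11.94 in WT and 10.12 to 11.83 in TG, with 1 of 9 above 0. That of 9 Langerhans cell and macrophage genes ran from 5.90 to 6.67 in WT and 5.94 to 6.35 in TG, with 4 of 9 above 0, and that of 7 fibroblast genes from 6.57 to 6.84 in WT and 6.79 to 6.99 in TG, with 6 of 7 above 0. Melanocyte, endothelium and sebocyte genes had medians of TG minus WT of -0.09, 0.09 and 0.01. Of 10 stem cell markers 9 lay above 0, against 47.9% of all genes, with a median of 0.32. Of these markers 0 passed the limma test or an unadjusted p of 0.05. Between arrays of the same number their median TG minus WT difference was 1.10, -0.03 and -0.11, with 8, 5 and 2 markers above 0. It was thus above 0 only for the arrays numbered 1. Their median deviation from the gene mean was -0.475, -0.493 and 0.463 in WT and 0.457, -0.445 and 0.347 in TG. The arrays numbered 3 were lowest in both genotypes for 7 of 8 T cell genes and 8 of 9 suprabasal genes, against 34.5% of all genes, and the part of these cells in the histone values was not tested.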

How the data were processed

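The authors' deposited values are on a log2 scale, 1 per array and feature. That scale was inferred from their range; no source used here gives the log base, summarisation or scaling, and fold values hold only for base 2. Of tools, the submitters' processing notes list Transcriptome Analysis Console and Affymetrix Expression Console 1.4.1, without their roles. The table held 41345 features: 23521 with 1 symbol, 1814 with several and 16010 with none. Genes were named by the platform annotation, and all 46 histone members matched RefSeq by Entrez ID. Clustered genes were those whose older symbol in RefSeq begins with Hist.

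The genotypes were compared in R 4.3.3 by lmFit and eBayes of limma 3.58.1 (two-sided, Benjamini-Hochberg over 22180 genes, threshold 0.05), with no filter on low values. The fit was tested on simulated data, with noise independent between arrays and no gene's spread above the median spread. The real arrays share variation by number, so that test does not speak for them. For arrays, their number limits the precision. Deviations of same-numbered arrays correlated over all genes at 0.20, 0.67 and 0.74, each above the limit of 0.1, so an alternative fit used the replicate number as a block. The labels state no pairing, and WT array 1 correlated better with TG array 2 (0.50).

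The members and lists were chosen with earlier results of these data known. The text names every replacement gene, clustered genes without overlap, the 3 of each family with the smallest unadjusted p, the largest opposite difference in a family, and up to 4 genes a list. H1f3, H1f6, H2ac1, H2ac10, H2ac12, H2ac20, H2bc1, H2bc12, H2bc21, Slbp and Srcap, and the shared features, were chosen after their values were seen. Shared features, counts over pairs and the split of the members were alternatives added after seeing the data. Alternatives also covered arrays left out, the block, feature choice, normalization, filter, moderation and weights.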

Additional observations from a re-analysis of the deposited data

How the results depend on the processing

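The count of genes past the limma threshold over all genes, 1, became 0 with no variance moderation, without both arrays numbered 2 and without both numbered 3, and ran from 0 to 1 when single arrays were left out (0 without TG array 1). The clustered count at an unadjusted p under 0.05, 2, became 4 with the replicate block, 1 with no moderation, 1 without both arrays numbered 2 and 0 among genes above the median level, and ran from 0 to 2 when single arrays were left out. The replacement count at that level, 0, was 1 with array weights and 1 with the replicate block, and ran from 0 to 1 when single arrays were left out. The clustered count without overlap, 2, became 9 without both arrays numbered 2, 4 without both numbered 3 and 0 above the median level, and ran from 2 to 7 when single arrays were left out; fewer arrays make non-overlap easier. The replacement median, 0.0238, was -0.0830 without both arrays numbered 3, 0.365 for the somatic genes alone, and -0.0197 to 0.0471 when single arrays were left out. The somatic median, 0.365, was 0.0804 without both arrays numbered 3 and ran from 0.0886 to 0.6243 when single arrays were left out. The clustered median ran from 0.02 to 0.1358 in the same way. Of 31 named genes, 14 had a difference above its standard error, and 204 of their 205 values under these alternatives kept its sign; the exception was H4c1, at -0.0678 without both arrays numbered 3. The other 17 genes, whose difference was within its standard error, changed sign in 45 of 244 values. Where no reason is given, the cause was not tested. The block, which rests on the pairing by number, changed no call at the adjusted threshold over genes; over all features the count past it went from 1, no histone feature, to 0. Levels near the bottom of the arrays, such as that of H4c8, can understate a difference. They can also be background alone, as no detection value was used.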

Other observations

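The 11 shared features of germline histone genes are nearly all of the spermatid H2A-L family. In the TG minus WT difference 10 of 11 lay below 0 and 1 above it (9.09%, against 46.2% of all features). The median was -0.13, and 0 passed an unadjusted p of 0.05 in limma. For 8 of the 11 the array numbered 3 was lowest in both genotypes, against 13106 of all 41345 features. The median gap between that array and the mean of the others was -0.85 in WT and -0.65 in TG for the 11. The germline features share gene symbols, so neither the 10 nor the 8 are independent. H2ac20, a clustered H2A gene, differed by 0.27 ± 0.35 (SE), and its neighbour H2bc21 by -0.06 ± 0.49.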
